A study of Arabidopsis thaliana with 12 samples.

Results

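RNA polymerase II occupancy was examined at the 6 genes that encode subunits of the Arabidopsis thaliana PAF1 complex. They were chosen by gene identifier: VIP3 (AT4G29830), VIP4 (AT5G61150), VIP5 (AT1G61040), VIP6, also called ELF8 (AT2G06210), ELF7 (AT1G79730) and CDC73, also called PHP (AT3G22590). The rule uses identifiers alone, although the set was proposed with earlier results of these data known. They are 6 of 33323 nuclear genes counted over the whole gene and of 29899 counted in the window at the transcription start site (TSS) and in the gene body, and all 6 had a row in each of the 12 libraries. What was counted was polymerase on these genes, not the complex or its proteins.

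The PAF1 complex travels with transcribing RNA polymerase II and is needed for ubiquitination of histone H2B and methylation of histone H3 behind the polymerase. In Arabidopsis it was found through mutants that flower early because FLC, the repressor of flowering, is not kept active. It is also recovered together with TFIIS, an elongation factor that helps a backtracked polymerase to cleave its transcript and resume. The subunits are named after yeast: ELF7 is the counterpart of Paf1, VIP6 of the tetratricopeptide scaffold Ctr9, VIP4 of Leo1, VIP5 of Rtf1 and CDC73 of Cdc73, known in humans as parafibromin. VIP3 is a WD-repeat protein whose human counterpart, SKI8, serves in the complex and in the SKI complex of RNA decay.

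Chromatin of seedlings of the Columbia ecotype was taken 10 days after sowing and precipitated with an antibody against polymerase phosphorylated at serine 2 (S2P) or at serine 5 (S5P) of its C-terminal domain. S2P is carried mostly by elongating polymerase, and S5P mostly by polymerase near the start of genes. All 4 groups, of 3 libraries each, carried the insertion allele tfIIs-1 (SALK_056755) of TFIIS and were exposed for 24 h, either to 2 mM β-estradiol (induced) or to ethanol (mock). The induced S2P libraries are labelled GFP-TFIIS and the induced S5P libraries GFP-TFIISmut, a mutated form, while the labels of mock libraries name no induced protein. The title of the series names the mutated form alone, so which protein the S2P libraries held is in doubt. As labelled, the antibody cannot be told apart from the protein induced with it, nor that protein from estradiol itself. Wild-type plants and input chromatin were not used here.

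The libraries held 115868 to 2537034 reads in nuclear genes, and 4 of the 12 held 210421 or fewer. The shallowest, S5P induced replicate 2, also had the highest share of counted reads outside genes, 38.6%, where the lowest was 16.1%. It stands apart in what follows, and whole gene S5P log2 fold changes of the members are given with and without it. Those of other genes and of gene lists are given with it only. Levels are given in CPM, reads scaled to a common total of nuclear gene reads, separately within each window. TFIIS itself (AT2G38560) ranged from 18.8 to 67.7 CPM in S2P mock and from 61.8 to 125 CPM in S2P induced libraries. It ranged from 46.9 to 58.9 CPM in S5P mock and from 43.2 to 179 CPM in S5P induced libraries, and the value of 43.2 CPM belonged to replicate 2. Its log2 fold changes on induction, 1.09 for S2P and 1.52 for S5P, did not pass the threshold (edgeR adjusted p = 0.573 and 0.580), and reads of the transgene and of the resident gene cannot be told apart. Markers of shoot and of root, both of which belong to whole seedlings, had reads in every group and were lower in range after induction. The 3 root genes summed to 141 to 236 CPM in S2P mock and 33.3 to 123 CPM in S2P induced libraries, without overlap, and to 110 to 354 and 60.4 to 151 CPM for S5P. The 4 shoot genes summed to 130 to 331 and 71.3 to 196 CPM for S2P, and to 185 to 614 and 43.2 to 258 CPM for S5P. A set of 4 genes that are silent outside seeds summed to 35.9 to 57.3 and 20.8 to 42.8 CPM for S2P, and to 31.3 to 41.4 and 8.63 to 30.9 CPM for S5P, the last pair without overlap. No gene of these lists was at 0 over a whole group, and the part of these differences in the results below was not tested. Genes silent outside seeds thus drew reads too, and without input the background part of a member's level was not measured. The lowest whole gene group mean of a member was 18.9 CPM, for CDC73 in S5P mock libraries. That is the level of 1 gene, while the seed values are sums over 4 genes, so they are not directly comparable. In whole seedlings, fewer cells that transcribe a gene and less polymerase per cell cannot be told apart.

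The 6 genes drew few reads, which limits the precision of the values below, beside the spread between libraries. Over all 12 libraries VIP6 drew 1330 whole gene reads, VIP4 833, ELF7 762, VIP5 673, CDC73 348 and VIP3 306. A single library gave a member between 0 and 306 reads. The TSS and gene body windows together held 102% to 106% of a member's whole gene reads, so some reads were counted in both. Intervals given for single libraries are exact 95% Poisson intervals, which cover counting error only, since amplified reads cannot be traced to separate molecules. CPM values are not divided by gene length, and each window is scaled to its own total. They are compared here only within a gene and a window.

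None of the 6 genes passed an adjusted p of 0.05 in any of 13 comparisons, which set induced against mock and S5P against S2P over each window, and the response of S5P against that of S2P over the whole gene (edgeR's quasi-likelihood test, Benjamini-Hochberg adjustment over all tested genes). DESeq2 and limma voom also called 0 members in each comparison where members were tested. At an unadjusted p under 0.05, VIP5 was the 1 member in S2P induced against mock and CDC73 the 1 member in S5P induced against mock, over the whole gene and over the gene body. The share of all tested genes past the adjusted threshold was 0.016% for S2P and 0% for S5P over the whole gene, and 7.65% and 7.51% were past the unadjusted bound. In the gene body the adjusted shares were 0.00626% and 0%, and the unadjusted shares 7.64% and 7.93%. A count of 1 in 6 is not read as a result about the complex against such a background.

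**Figure D1:**
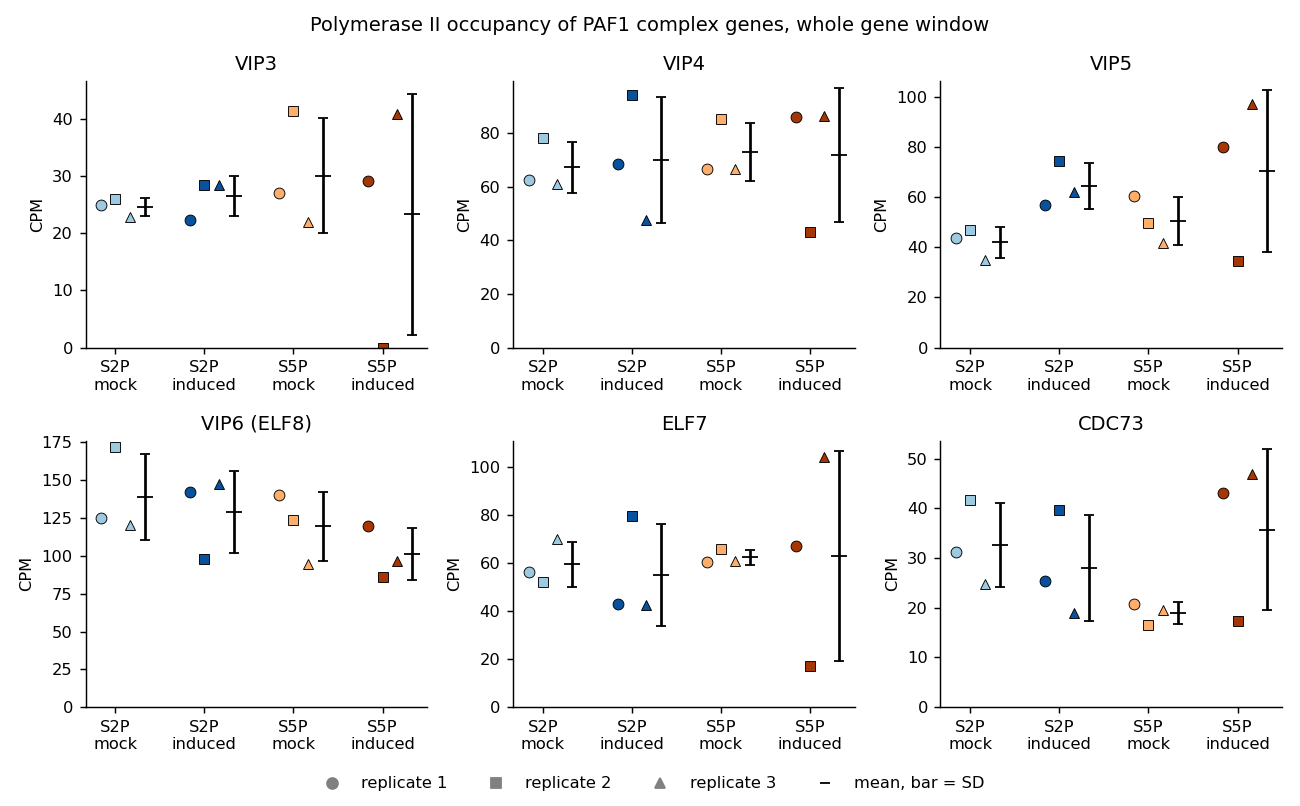
Whole gene occupancy of each PAF1 complex gene, in CPM on a linear axis from 0, by group; each symbol is a library, its shape gives the replicate, and the bar shows the mean and SD of 3 libraries. The S5P induced square of replicate 2, from the shallowest library, is the lowest of its group for all 6 genes, and the S2P induced libraries of VIP5 all lie above the S2P mock libraries.

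VIP5, the counterpart of yeast Rtf1, which stimulates ubiquitination of histone H2B, was higher in each S2P induced library than in any S2P mock library. Its whole gene S2P level was 43.8, 46.9 and 35.1 CPM in mock replicates 1, 2 and 3, and 56.9, 74.4 and 61.8 CPM in the induced ones. The groups did not overlap, and 3.41% of all tested genes likewise lay higher without overlap. The mean of the mock libraries was 41.9 ± 6.11 CPM and that of the induced ones 64.4 ± 8.99 CPM (SD, n = 3). The log2 fold change was 0.86 (SE 0.34), with an unadjusted p of 0.0226 and an adjusted p of 0.581 in edgeR. It ranked 729 of 18798 tested genes by p. Under the other settings its log2 fold change stayed between 0.47 and 0.95 and its adjusted p between 0.279 and 0.999. Its unadjusted p was under 0.05 in 8 of these 15 settings. The lowest value, 0.47, came without S2P mock replicate 3, the deepest library of that group.

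The S5P level of VIP5 was 60.5, 49.6 and 41.5 CPM in mock libraries and 80.1, 34.5 and 96.9 CPM in induced ones. Induced replicates 1 and 3 lay above all mock libraries and replicate 2, with 4 reads and an interval of 9.41 to 88.4 CPM, lay below them. The means were 50.5 ± 9.52 and 70.5 ± 32.3 CPM (SD, n = 3), and the log2 fold change 0.75 (SE 0.40, edgeR adjusted p = 0.685). Without replicate 2 it was 0.93 (SE 0.29, adjusted p = 0.157). The unadjusted p for S5P was under 0.05 in 2 of 15 alternative settings. VIP5 had a positive difference with both antibodies, and neither passed the threshold. Same-numbered libraries of the antibodies deviated together in mock plants and in opposite directions in induced plants. The differences may therefore not be independent of each other. The response of S5P minus that of S2P was -0.10 (SE 0.50, adjusted p = 1.00), and 0.039 without S5P induced replicate 2.

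In the gene body alone, VIP5 gave much the same log2 fold changes. Its S2P level there was 45.6, 38.9 and 32.7 CPM in mock and 52.5, 69.7 and 56.5 CPM in induced libraries, again without overlap, as for 3.46% of all tested genes in that direction. The log2 fold change was 0.81 (SE 0.33, unadjusted p = 0.0292, adjusted p = 0.618, edgeR). For S5P it was 0.82 (SE 0.40, adjusted p = 0.639) with all libraries, and 0.99 (SE 0.29, adjusted p = 0.168) without induced replicate 2. The 2 genes beside VIP5 in the reference order, chosen after their values were seen, gave these values: AT1G61030 had a whole gene log2 fold change of 0.22 for S2P and -0.11 for S5P, and AT1G61050 one of -0.52 for S5P, with too few S2P reads for a test.

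CDC73, whose human counterpart is the tumour suppressor parafibromin, had the largest fold change of the 6 genes, with the S5P antibody. Its whole gene S5P level was 20.7, 16.5 and 19.6 CPM in mock libraries and 43.1, 17.3 and 47.0 CPM in induced ones. Induced replicates 1 and 3, with 71 and 63 reads, lay above the highest mock value, while replicate 2, with 2 reads and an interval of 2.09 to 62.4 CPM, lay within the mock range, so the groups overlapped. Mock libraries averaged 18.9 ± 2.15 CPM and induced ones 35.8 ± 16.1 CPM (SD, n = 3). The log2 fold change was 1.21 (SE 0.34), with an unadjusted p of 0.00407 and an adjusted p of 0.458 in edgeR, rank 195 of 21954 genes.

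Without S5P induced replicate 2 the log2 fold change of CDC73 was 1.31 (SE 0.30) and passed the threshold, with an edgeR adjusted p of 0.0444. That fit, in which the remaining induced libraries carry the group, called 302 of 26076 genes, or 1.16%, of which 288, or 1.1% of those tested, were higher. CDC73 was the 1 member called. Over its 15 alternative settings the log2 fold change kept its sign and lay between 1.06 and 1.31, the unadjusted p was under 0.05 in 15 of 15, and the adjusted p ranged from 0.0444 to 0.989. Whether S5P induced replicate 2 was included thus changed the call, and the estimate by less than its SE.

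**Figure D2:**
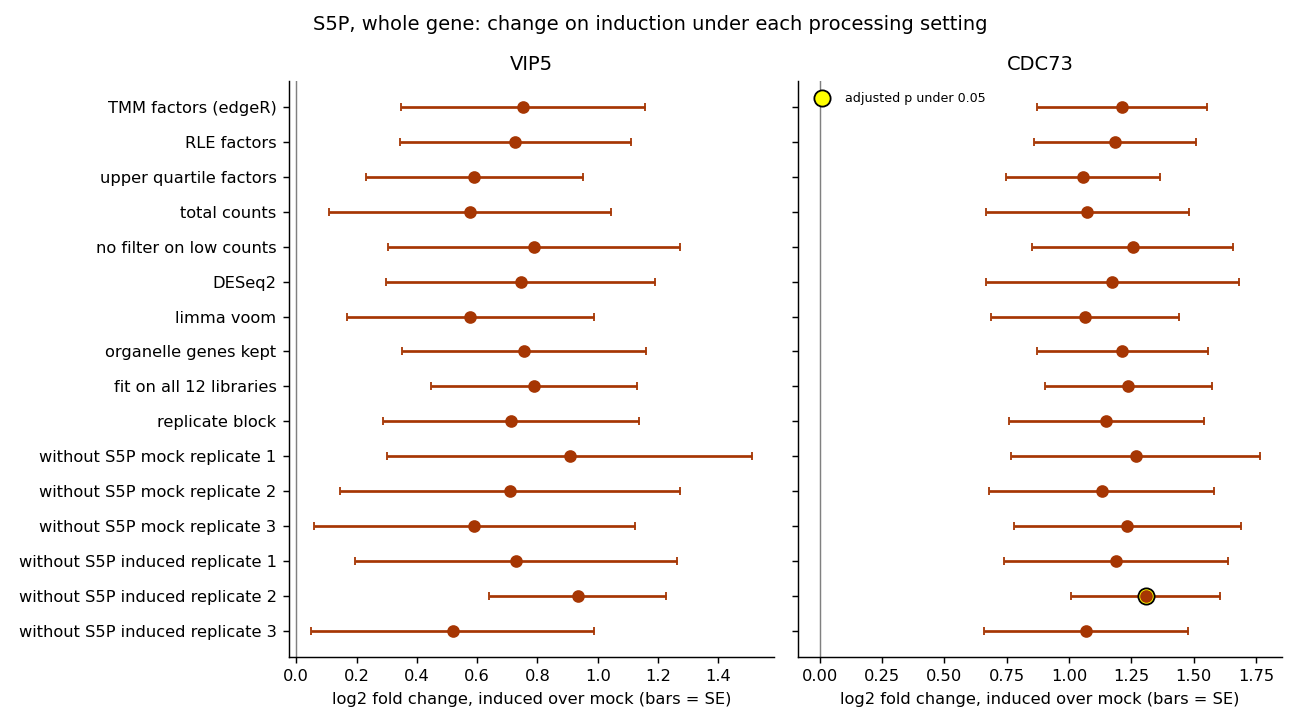
Whole gene log2 fold change of S5P on induction for VIP5 and CDC73 under the reported setting (top) and 15 alternatives; points are estimates, bars are SE, and a ringed yellow point passes an adjusted p of 0.05. CDC73 lies between 1.06 and 1.31 throughout, and the setting without S5P induced replicate 2 is the 1 that passes.

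In the gene body, CDC73 gave 17.9, 13.8 and 16.2 CPM of S5P in mock and 37.6, 12.5 and 44.0 CPM in induced libraries. Induced replicates 1 and 3 again lay above all mock libraries, and induced replicate 2, at 1 read, lay below them. The log2 fold change was 1.29 (SE 0.35, unadjusted p = 0.00318, adjusted p = 0.401, edgeR), and 1.35 (SE 0.31, adjusted p = 0.0861) without that replicate, so the gene body did not pass in either fit, the second of which called 0.653% of all genes. The neighbouring gene AT3G22600, chosen after its value was seen, had a whole gene S5P log2 fold change of -0.08. The other neighbour, AT3G22580, had too few reads for a test with either antibody.

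With the S2P antibody CDC73 lay in the same range in both groups. Its level was 31.3, 41.7 and 24.8 CPM in mock and 25.4, 39.8 and 19.0 CPM in induced libraries. The log2 fold change was 0.17 (SE 0.37, adjusted p = 0.932, edgeR), positive although the mean CPM was lower, 28.1 against 32.6. TMM scaling set factors of 0.86, 1.06 and 0.86 for the induced libraries and 1.04, 1.15 and 1.06 for the mock ones. With library totals in place of these factors the log2 fold change was slightly negative, and the fit also weights libraries by their reads. The response of S5P exceeded that of S2P by 1.02 on the log2 scale (SE 0.49, unadjusted p = 0.0503, adjusted p = 1.00), so a difference between the antibodies was not shown. Over all genes 0.635% had an unadjusted p under 0.05 in that test and 0% an adjusted one. Over 20 alternative settings the value for CDC73 ranged from 0.85 to 1.28, and it was 1.09 (SE 0.46, unadjusted p = 0.0293, adjusted p = 1.00) without S5P induced replicate 2.

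The other 4 genes had small differences with wide errors. VIP6, the scaffold subunit, gave S2P levels of 125, 172 and 121 CPM in mock and 142, 97.7 and 147 CPM in induced libraries, and S5P levels of 140, 124 and 94.7 CPM against 120, 86.3 and 96.9 CPM. Both pairs of groups overlapped, and the log2 fold changes were 0.11 (SE 0.43, adjusted p = 0.969) and -0.02 (SE 0.44, adjusted p = 0.998) in edgeR. Without S5P induced replicate 2 the S5P value was again -0.02 (SE 0.31). VIP6 had the most reads of the 6 genes, yet its SE of 0.43 for S2P was the largest among them. More reads thus did not make its change better known.

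VIP4, the counterpart of Leo1, gave S2P levels of 62.5, 78.1 and 61.1 CPM in mock and 68.4, 94.2 and 47.5 CPM in induced libraries, and S5P levels of 66.8, 85.4 and 66.5 CPM against 86.1, 43.2 and 86.4 CPM. The groups overlapped with both antibodies. The log2 fold changes were 0.30 (SE 0.35, adjusted p = 0.854) and 0.23 (SE 0.39, adjusted p = 0.896), and the S5P value was 0.37 without induced replicate 2.

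ELF7, the counterpart of the yeast subunit that named the complex, gave S2P levels of 56.3, 52.1 and 70.2 CPM in mock and 43.0, 79.5 and 42.8 CPM in induced libraries, which overlapped. Its S5P level was 60.5, 66.2 and 61.1 CPM in mock libraries, close to each other, and 67.3, 17.3 and 104 CPM in induced ones, on both sides of the mock range. The log2 fold changes were 0.02 (SE 0.35, adjusted p = 0.998) and 0.32 (SE 0.45, adjusted p = 0.873), and the S5P value was 0.57 (SE 0.30, adjusted p = 0.423) without induced replicate 2. ELF7 and the next gene, AT1G79740, overlap in the reference, and since strand use is not stated, reads of the overlap may not all be its own.

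VIP3 was the least counted. Its S2P level was 25.0, 26.0 and 22.9 CPM in mock and 22.4, 28.5 and 28.5 CPM in induced libraries, and its S5P level 27.0, 41.3 and 21.9 CPM against 29.1, 0 and 41.0 CPM. The value of 0 came from S5P induced replicate 2, where the exact interval of a count of 0 reaches 31.8 CPM and the limit of 3 reads lies at 25.9 CPM, so it does not lie clearly below the mock range. The log2 fold changes were 0.28 (SE 0.35, adjusted p = 0.867) and 0.25 (SE 0.44, adjusted p = 0.903), and the S5P value was 0.43 (SE 0.32, adjusted p = 0.575) without that library. VIP3 overlaps MTO2 in the reference, with the same limit as for ELF7. The S5P log2 fold changes of both neighbours, chosen after their values were seen, were larger than that of VIP3: 0.83 (SE 0.36, unadjusted p = 0.0412, adjusted p = 0.654) for MTO2 and 1.12 (SE 0.38, unadjusted p = 0.0124, adjusted p = 0.602) for CFIM-25, by edgeR.

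**Figure D3:**
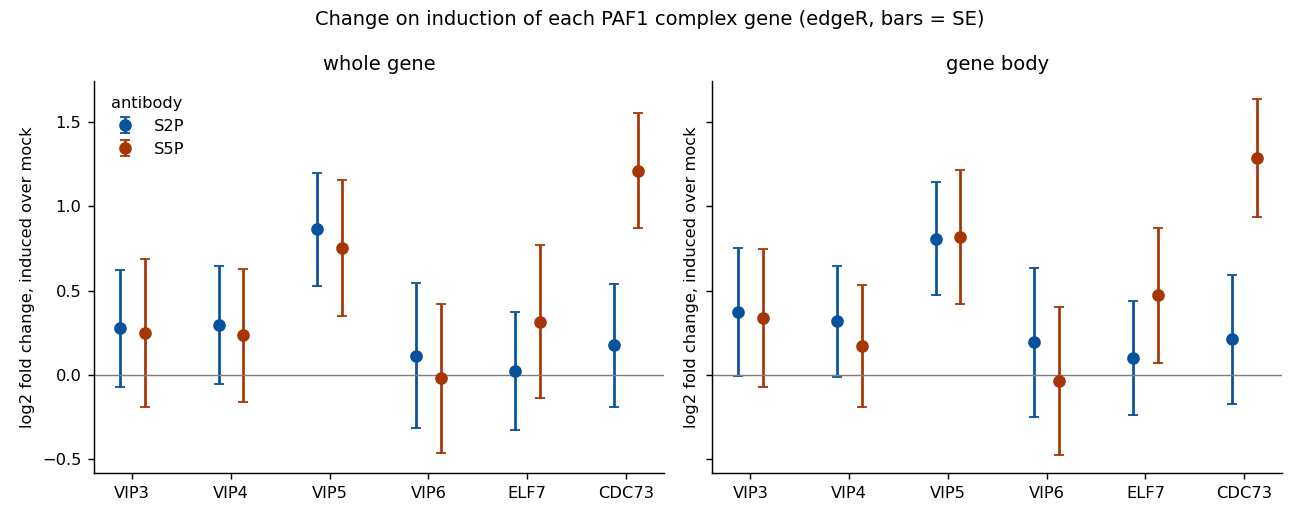
Log2 fold change of induced over mock for each PAF1 complex gene over the whole gene and in the gene body; points are edgeR estimates from 6 libraries, bars are SE, blue is S2P and red is S5P. VIP5 lies between 0.75 and 0.86 with both antibodies and in both windows, CDC73 lies at 1.21 and 1.29 for S5P, and the highest of the other points is 0.47, for ELF7.

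Taking the 6 genes side by side, 6 of 6 had a positive whole gene log2 fold change for S2P, with a median of 0.23, where 53.0% of all tested genes were positive and the median was 0.04. This count rests on the scaling: with library totals in place of TMM factors, 3 of 6 were positive, the median was 0.02 and that of all genes -0.16. For S5P, 5 of 6 were positive with a median of 0.28, against 49.4% of all genes and a median of -0.01. With library totals the count stayed at 5, with a median of 0.12 against -0.15 for all genes, and without induced replicate 2 the median was 0.50. The signs still depended on the method: limma voom gave negative values for VIP3 (-0.41) and ELF7 and a positive one for VIP6. Mean S5P CPM was lower after induction for VIP3 (23.4 against 30.1), VIP4 (71.9 against 72.9) and VIP6 (101 against 120). It was higher for VIP5, ELF7 and CDC73. In the gene body the medians were 0.27 for S2P and 0.41 for S5P. The summed level of the 6 genes was 365 ± 44.9 CPM in S2P mock, 373 ± 35.9 CPM in S2P induced, 355 ± 42.9 CPM in S5P mock and 366 ± 147 CPM in S5P induced libraries (SD, n = 3). S5P induced replicate 2 summed to 199 CPM from 23 reads, while replicates 1 and 3 summed to 426 and 472 CPM, above the highest S5P mock library at 383 CPM.

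In mock plants no member differed past the threshold between the S5P and S2P antibodies. The log2 differences, S5P minus S2P over the whole gene, ran from -0.53 to 0.37, and 0 of 6 passed (0% of all genes adjusted, 2.27% unadjusted, edgeR). The lowest was CDC73, at -0.53 (SE 0.34, adjusted p = 1.00), with S5P at 18.9 ± 2.15 CPM and S2P at 32.6 ± 8.49 CPM (SD, n = 3). Its groups did not overlap, as for 3.97% of all genes in that direction. Same-numbered mock libraries of the antibodies deviated together, and with the number as a block 230 of 16388 genes passed, none of them a member. CDC73 then had a log2 difference of -0.52 and an adjusted p of 0.669. The highest was VIP5, at 0.37 (SE 0.28). In the gene body 4 members were tested and 0 passed (0% adjusted, 1.95% unadjusted).

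In induced plants the corresponding differences ran from -0.41 at VIP6 to 0.38 at CDC73, and again 0 of 6 passed (0% adjusted, 0.698% unadjusted). CDC73 thus had the lowest S5P level relative to S2P of the 6 genes in mock and the highest in induced libraries; these comparisons share their libraries with the responses above and add no separate evidence. Without S5P induced replicate 2 the whole gene differences ran from -0.41 at VIP6 to 0.50 at ELF7, with CDC73 at 0.48, and none passed. In the TSS window of induced plants 5 members were tested and 0 passed (0% adjusted, 1.32% unadjusted), and in the gene body 6 were tested and 0 passed (0% adjusted, 0.922% unadjusted).

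The TSS window held few reads of these genes, from 79 for VIP3 to 181 for VIP5 over 12 libraries, and most members failed the filter on low counts. For S2P induced against mock, VIP5 (log2 fold change 0.29, SE 0.78) and CDC73 (-0.35, SE 0.89) were tested, and for S5P, VIP5 (0.21, SE 0.74) and ELF7 (-0.69, SE 0.61). None passed, where 0% of all genes did for either antibody and 3.61% and 4.35% were past the unadjusted bound. Without S5P induced replicate 2 all 6 members had enough reads for S5P, and 5 of 6 changes were positive: 0.12 for VIP3 (SE 0.58), 0.76 for VIP4 (SE 0.48), 0.37 for VIP5 (SE 0.48), 0.83 for VIP6 (SE 0.51) and 0.81 for CDC73 (SE 0.45), with ELF7 at -0.42 (SE 0.44). None passed there either, and 0.104% of all genes did. Of all genes tested in that fit, 48.5% were positive, with a median of -0.03. The median over the tested members was -0.24 for the 2 tested with all libraries and 0.56 for the 6 tested without that one. These are different sets of genes: VIP5 and ELF7, tested in both fits, went from 0.21 and -0.69 to 0.37 and -0.42. In mock plants no member could be tested between antibodies in this window.

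At VIP5 the S5P TSS level was 58.5, 45.2 and 58.6 CPM in mock and 78.6, 73.6 and 80.0 CPM in induced libraries. The groups did not overlap, as for 5.46% of tested genes in that direction, although replicate 2 contributed 3 reads. At ELF7 the same level was 52.0, 56.5 and 58.6 CPM in mock and 46.3, 0 and 46.1 CPM in induced libraries. All induced libraries lay below the mock ones, as for 4.5% of tested genes, while the gene body level of ELF7 was 61.5, 65.5 and 58.9 CPM in mock and 70.7, 24.9 and 115 CPM in induced libraries, with replicates 1 and 3 above the mock range.

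The balance between the windows was therefore taken for each gene as the percent of its TSS and gene body reads that lay in the TSS window. Over all nuclear genes this share was 20.3% to 33.7% per library, with the highest value in S5P induced replicate 2. VIP4 and VIP6 lay below it in each library and CDC73 above it in each but S2P induced replicate 3. The share depends on the length of the gene body, so members are not compared with each other.

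ELF7 was the 1 of 12 gene and antibody pairs whose shares did not overlap between mock and induced libraries, in S5P. Over all genes with reads in each library, 8.47% had S5P shares without overlap, 3.32% had S5P shares that were all lower, and 9.14% had S2P shares without overlap, so 1 of 12 is near the background. Its S5P share was 20.5%, 20.8% and 21.5% in mock libraries, and 17.9% (95% Wilson interval 11.9% to 26.0%), 0% (0 of 2 reads) and 10.6% (6.55% to 16.8%) in induced ones. The means were 21.0% ± 0.514 and 9.50% ± 8.98 (SD, n = 3), a difference of -11.5 percentage points with an exact two-sided permutation p of 0.1, the smallest that 3 against 3 libraries can give. Without replicate 2 the difference was -6.71 points, and with reads pooled within groups -7.40 points.

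For S2P the share of ELF7 was 11.1%, 10.0% and 21.6% in mock and 10.7%, 7.37% and 33.3% in induced libraries, which overlapped (exact permutation p = 0.9). The sign depended on the weight of the libraries: the mean difference was 2.88 points, and that of pooled reads -10.5 points. S2P mock replicate 3 held 40 TSS and 145 gene body reads of ELF7, and S2P induced replicate 3 held 3 and 6. In edgeR's test of the window balance, which weights libraries by their reads, the log2 change of the ratio of TSS to gene body reads at ELF7 was -1.26 for S2P (SE 0.65, unadjusted p = 0.0612) and -0.92 for S5P (SE 0.55, unadjusted p = 0.103), with adjusted p = 1 for both. None of 10165 genes for S2P and 14279 for S5P passed in that test, or 0% each.

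The other shares overlapped between mock and induced libraries. At VIP4 the S5P share averaged 9.48% ± 3.95 in mock and 16.7% ± 4.34 in induced libraries (SD, n = 3), with an exact permutation p of 0.2. For the remaining pairs the exact p was between 0.6 and 1, and VIP3 had no reads in S5P induced replicate 2 and so no share there. At CDC73, where the S5P level differed most, the S5P share was 38.3% ± 5.63 in mock and 38.5% ± 10.9 in induced libraries (SD, n = 3).

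**Figure D4:**
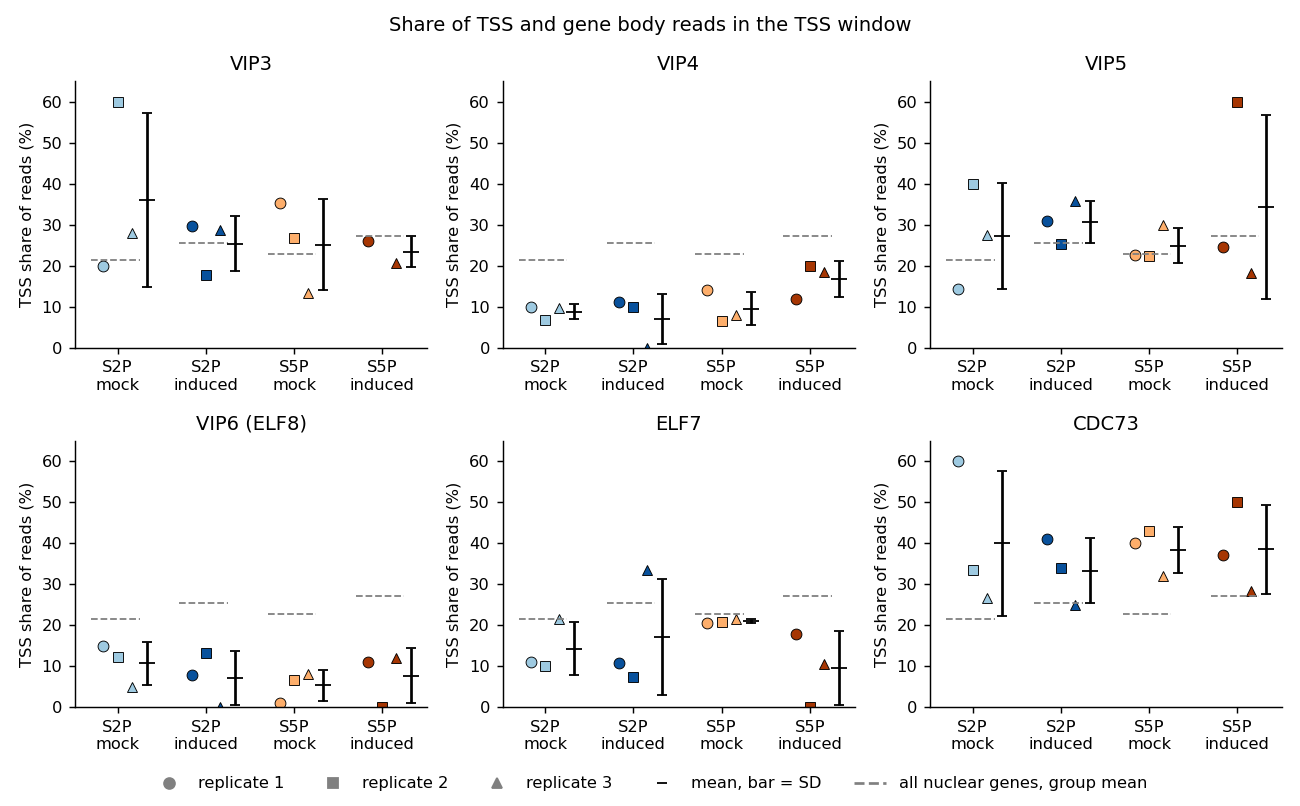
Percent of a gene's TSS and gene body reads that lie in the TSS window, by group; each symbol is a library, bars show mean and SD, and the dashed line is the group mean over all nuclear genes. The S5P mock libraries of ELF7 lie together between 20.5% and 21.5% and all S5P induced libraries lie lower, while the groups of the other genes overlap.

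Genes that work with the PAF1 complex were read from 4 lists with 36 genes, and none passed the threshold in either direction, S2P or S5P, over the whole gene. For the enzymes that add or remove ubiquitin on histone H2B, 6 of 7 log2 fold changes were positive for S2P (median 0.15) and 7 of 7 for S5P (median 0.19). UBC2, an E2 enzyme of this reaction, had the smallest p, with 0.65 (SE 0.38, adjusted p = 0.689) for S2P and 0.68 (SE 0.41, adjusted p = 0.701) for S5P. For histone H3 lysine 4 and lysine 36 methyltransferases and their core subunits, 8 of 11 were positive for S2P (median 0.33) and 6 of 11 for S5P (median 0.03). The smallest p belonged to SDG8, also called EFS, a lysine 36 methyltransferase, with 0.68 for S2P (SE 0.46, adjusted p = 0.729). For S5P it belonged to ASH2R, also called TRO, a core subunit, with 0.86 (SE 0.36, adjusted p = 0.648).

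Other elongation factors and kinases, TFIIS among them, had higher medians than the PAF1 complex genes, 0.60 for S2P with 10 of 11 tested genes positive and 0.66 for S5P with 10 of 12. Of them, 3 had an unadjusted edgeR p under 0.05 for S2P and 2 for S5P, against 7.65% and 7.51% of all genes. ASH2R, for S5P, was the 1 gene of the other lists under it. FLC and its relatives, the genes whose activity depends on the complex, had medians below 0. Of these 6 genes 2 were positive for S2P (median -0.19) and 3 for S5P (median -0.01). MAF3 had the smallest p, with 0.85 (SE 0.51, adjusted p = 0.696) and 0.97 (SE 0.64, adjusted p = 0.722), and is uncertain because it lies among similar copies that may share reads. Of all tested genes 53.0% were positive for S2P and 49.4% for S5P, with medians of 0.04 and -0.01. Counts of the lists are given with TMM factors alone, and those of the PAF1 complex genes for S2P depended on the scaling. No difference between a list and the rest was tested.

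Across the 12 libraries, the level of each member was set against the mean of the other 5, as log2 CPM with TMM factors. Pearson's r was 0.82 for ELF7, 0.74 for VIP4, 0.67 for VIP3, 0.63 for VIP5, 0.52 for CDC73 and 0.09 for VIP6, over 12 libraries that share their depth with all genes, so these values are a description. VIP6 followed the others least, although it had the most reads. By Spearman's rho the order differed: 0.66 for VIP4, 0.64 for VIP5, 0.52 for CDC73, 0.51 for VIP3, 0.40 for ELF7 and 0.27 for VIP6. Among 11800 genes at least as high as the lowest member, the patterns most like the mean of the members were those of AT5G16930 (r = 0.98), DCP5 (r = 0.98), a gene of mRNA decapping, and PRT6 (r = 0.97), a ubiquitin ligase of the N-degron pathway. DCP5 and PRT6 were also among the top 3 with library totals, and none of these 3 genes was among the top 3 by Spearman's rho. Their lowest S5P induced values were 8.63, 25.9 and 34.5 CPM, where 3 reads in S5P induced replicate 2 are 25.9 CPM. How far the likeness rests on that library was not tested. AT5G16930 had log2 fold changes of 0.41 for S2P and 0.80 for S5P, DCP5 0.35 and 0.44, and PRT6 0.20 and 0.27, none past the threshold.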

How the data were processed

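The authors deposited raw read counts per gene, whole numbers with no normalization, for 12 chromatin immunoprecipitation libraries in 3 windows (whole gene, TSS, gene body). Per the submitters' processing notes, Trimmomatic and HTSeq were used with build TAIR10. Not given in the sources used here are versions, the aligner, window bounds and strand use. Lines that name no gene (74.7% to 96.7% of reads were not aligned) and organelle genes were left out. Library depth is given in the report.

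Groups came from the labels. The origin of replicates is not stated, so a p-value measures the spread of these samples only, and that spread may be technical. Each comparison was fitted on its 6 libraries, over all nuclear genes, with edgeR 4.0.16 in R 4.3.3 (quasi-likelihood test, TMM scaling, a filterByExpr minimum count of 10, Benjamini-Hochberg threshold 0.05). The difference of responses used all 12 libraries. SE was derived from the F statistic. TSS shares were compared by exact permutation. Tests were checked on simulated counts. Alternatives were RLE, upper quartile and total count scaling, no filter, DESeq2 1.42.0, limma 3.58.1 voom, organelle genes kept, a fit on all libraries, a replicate block and leaving out each library.

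Same-numbered libraries deviated together between the antibodies in mock plants (correlations 0.178, 0.286 and 0.437 over 16388 genes). In induced plants the same correlations were negative (-0.191, -0.491 and -0.342 over 23364 genes). Differently numbered libraries were not compared, so whether the numbers pair libraries was not settled. Symbols, the order of genes and whether neighbours overlap came from a RefSeq table of TAIR10.1, of which no coordinates are printed. Members and lists were chosen with earlier results of these data known. Named genes were the 6 members, TFIIS, the gene of each list with the smallest p for each antibody, and the 3 genes most like the members. Neighbours of members were added after their values were seen, and fold changes are given for those of VIP5, CDC73 and VIP3 only.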

Additional observations from a re-analysis of the deposited data

How the results depend on the processing

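The number of members past the threshold was 0 under every setting run, except S5P induced against mock over the whole gene without S5P induced replicate 2, where it was 1 (CDC73), so leaving out single libraries gave 0 to 1. Signs of small S2P whole gene changes depended on scaling. With total counts, VIP6 was -0.15, ELF7 -0.16 and CDC73 -0.035. DESeq2 gave -0.022 for ELF7, RLE scaling -0.028 and upper quartile scaling -0.10. With limma voom the S5P whole gene changes were -0.41 for VIP3, 0.0079 for VIP6 and -0.066 for ELF7, and S5P minus S2P in induced plants was -0.038 for VIP5. The cause was not tested. Leaving out single libraries moved S2P changes over -0.10 to 0.50 for VIP4, -0.24 to 0.23 for VIP6 and -0.57 to 0.15 for ELF7. S5P changes moved over -0.13 to 0.46 for VIP3, -0.18 to 0.11 for VIP6 and -0.15 to 0.57 for ELF7. At VIP5, S5P minus S2P in induced plants moved over -0.064 to 0.33, and the difference of responses over -0.36 to 0.039.

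With the replicate number as a block, CDC73 for S2P over the whole gene was -0.049, and no call of a member changed. Same-numbered correlations between mock and induced libraries ran from -0.248 to 0.0786 for S2P and from 0.00207 to 0.315 for S5P. Whether the number pairs these libraries was not settled. Files of induced replicate 3 carry another number than its label, and the label was kept.

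Over all genes, the 3 calls for S2P over the whole gene became 526 without S2P induced replicate 2, 72 with no filter, 42 with DESeq2, 40 without S2P induced replicate 3, 14 with total counts, 1 with limma voom and 0 with RLE or upper quartile factors. For S5P, 0 calls became 302 without S5P induced replicate 2, 92 with DESeq2, 32 in the fit on all libraries and 28 with no filter. Depth limits these data: in the shallowest library 3 reads, the limit for a count of 0, are 25.9 CPM, and the exact interval of 0 reads reaches 31.8 CPM, near the level of VIP3.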
